A study of Mus musculus with 8 samples.

Results

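Endothelial cell genes were examined as a set of 36 members, chosen by symbol from the 23045 genes of the processed table. All 36 were found in the table, and all 36 passed the filter of a mean value of at least 1 that left 20313 genes for testing. The table came from an RNA-seq comparison of mouse hearts in which cardiomyocytes had lost Mettl3, the catalytic subunit of the complex that writes N6-methyladenosine (m6A) on RNA, with control hearts. WT denotes the 4 hearts of genotype Mettl3lox/lox. Mettl3 KO denotes the 4 hearts of genotype Mettl3lox/lox:alphaMHC-MerCreMerpos, in which a tamoxifen-activated Cre is driven by the cardiomyocyte promoter of the alpha myosin heavy chain gene. Mice of both genotypes were 10 to 16 weeks old when tamoxifen was injected on 7 consecutive days, both carried the floxed alleles, and sex was not considered in the design. WT hearts lacked the transgene, so that effects of the active Cre and of Mettl3 loss cannot be told apart. The samples were labelled as separate hearts without a statement on litters or batches, and p-values measured the spread between these samples.

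Endothelial cells line the heart's capillaries, arteries, veins and lymphatic vessels, and as endocardium they line its chambers. Capillary endothelium passes fatty acids and water to the myocytes, while all endothelium shares junction proteins, receptors for VEGF and angiopoietin, and transcription factors of the ETS and SOX families. Many genes of the set are shared by every vessel type, whereas Gpihbp1, Fabp4, Car4, Aqp1 and Aplnr are rich in capillaries and Vwf, Plvap and Sox17 are stronger in veins, endocardium or arteries. The Cre driver directs expression to cardiomyocytes, so endothelial cells were not the targeted cells, and their transcripts were measured within RNA of heart tissue. In such RNA a smaller number of endothelial cells and less RNA per endothelial cell cannot be told apart.

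Mettl3 itself had normalized read counts of 105, 133, 118 and 107 in WT against 74, 68, 69 and 78 in Mettl3 KO hearts, 62.4% of the WT mean (log2 fold change -0.67, SE 0.10, limma adjusted p = 0.000184). Sums of the normalized counts were 2839589 to 2916986 per library. The Mettl3 KO libraries were not uniform. All 4 atrial genes rose, with summed levels of 175 to 320 in WT and 485, 704, 785 and 1022 in Mettl3 KO 1 to 4. Among them Bmp10 was at 0 in all 4 WT libraries and in Mettl3 KO 1 but at 195, 158 and 358 in Mettl3 KO 2 to 4. Nppa held most of the atrial sum in WT (248 of a mean of 271) and in Mettl3 KO 1 (452 of 485). Of the 4 genes, Nppa alone did not overlap between the groups. Mettl3 KO 2 had the highest summed endothelial level of its group. The fibroblast marker list rose in 7 of 8 genes, with summed levels of 3648 to 4172 in WT and 4711 to 5671 in Mettl3 KO. The cardiomyocyte list summed to 100.5% of WT, a sum held mostly by Ttn (a mean of 71020 of 94640 in WT). Of its 8 genes 1 passed as lower (Ryr2) and none as higher, and 7 fold changes were above 0. Mural markers summed to 4983 to 5408 in WT and 4598 to 4907 in Mettl3 KO, with Abcc9 and Notch3 lower among 9. Fold changes were above 0 for 3 of the 9, Tagln, Myh11 and Acta2 (135.1%, 113% and 110% of WT), which did not pass the test. No macrophage marker of 8 passed the test (99.7% of WT). The part of these differences in the endothelial values was not tested.

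Endothelial transcripts were slightly lower in Mettl3 KO hearts. Of the 36 members, 10 passed the test as lower (limma, Benjamini-Hochberg adjusted p under 0.05 over all genes tested) against 3.19% of all genes, and 2 passed as higher against 4.72% of all genes. The 10 that fell were Kdr, Tie1, Flt1, Esam, Cdh5, Cav1, Aqp1, Gpihbp1, Fabp4 and Aplnr, and the 2 that rose were Vwf and Tmem100. The shares over all genes include genes of low counts, which the members are not. With a filter of a mean of at least 10, 1687 of 13795 genes passed in either direction, beside 1607 of 20313 in the main fit. The same 12 members passed under that filter. The fitted log2 fold change was below 0 for 32 members and above 0 for 4, with a median of -0.14 and a range of -0.45 to 0.61, beside a median of -0.01 over all genes tested. The remaining 24 members did not pass the test. An unadjusted limma p under 0.05 was found for 21 of the 36 members, beside 4184 of the 20313 genes tested. The WT and Mettl3 KO values did not overlap for 8 members that were lower, against 5.04% of all genes, and for 2 that were higher, against 6.46%. Summed over the set, the normalized counts were 13157 to 13729 in WT and 11968 to 13016 in Mettl3 KO, a Mettl3 KO mean of 91.7% of WT. The coefficient of variation between replicates had a median of 8.02% in WT and 7.57% in Mettl3 KO. When the variance was not allowed to follow expression in limma, 321 genes and a single member, Tmem100, passed, and the 10 lower members became 4 without Mettl3 KO 3 and 5 without WT 4 or Mettl3 KO 4.

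**Figure D1:**
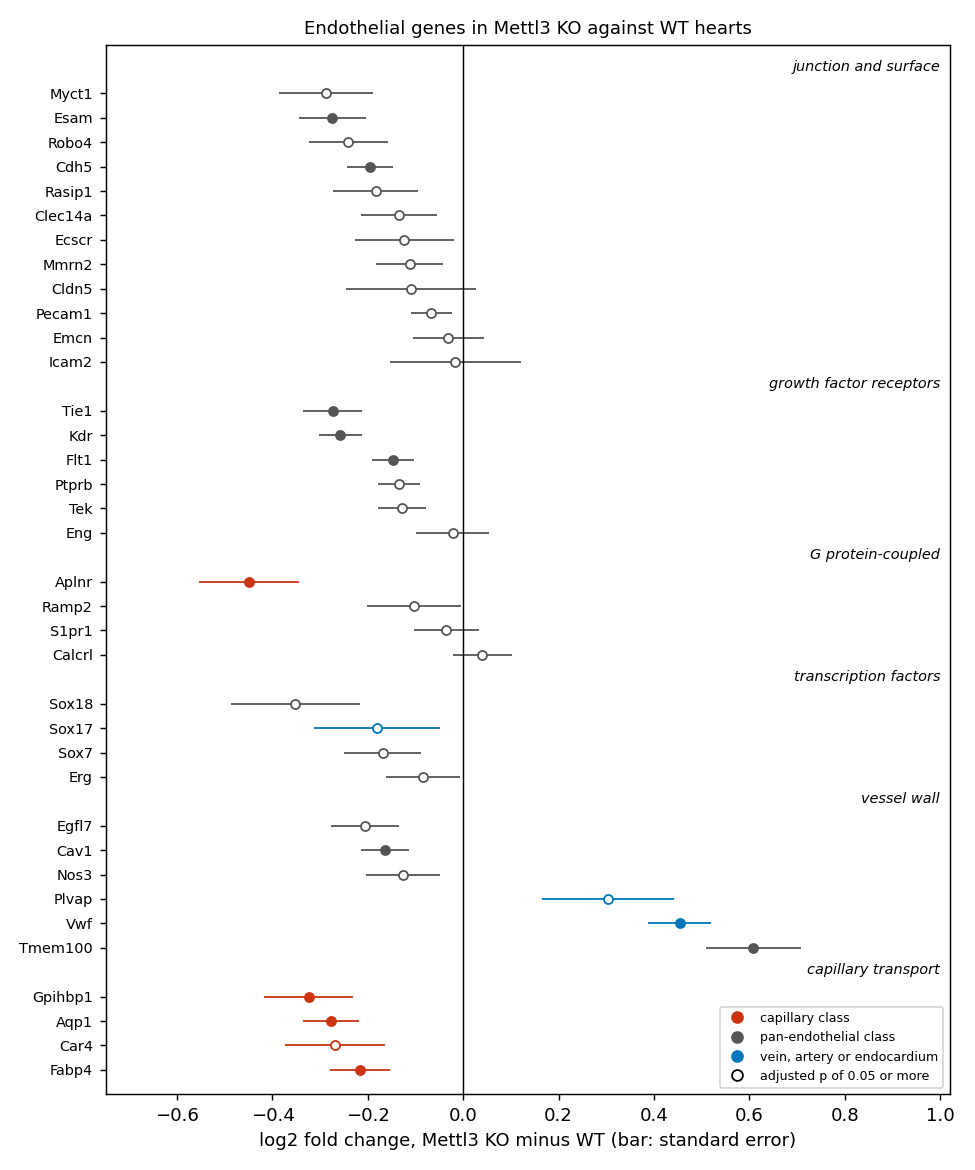
Log2 fold changes (x axis, Mettl3 KO minus WT, bars: standard error, n = 4 hearts each) of the 36 endothelial genes, grouped by role, with filled points for those of limma adjusted p under 0.05. Points lie left of 0 for 32 genes, and Vwf and Tmem100 are the filled points to the right.

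Among growth factor receptors and their partners, 3 of 6 members fell and none rose, with a median log2 fold change of -0.14. Beside this and the role counts below, 3.19% of all genes tested passed as lower and 4.72% as higher. Kdr (ENSMUSG00000062960, mm39 chr5:76093487-76139118), the main signalling receptor for VEGF, had normalized read counts of 1269, 1358, 1287 and 1359 in WT against 1161, 1148, 1086 and 1019 in Mettl3 KO hearts. Every Mettl3 KO heart was below every WT heart, and the mean fell from 1318 ± 47.1 to 1104 ± 65.2 (SD, n = 4; log2 fold change -0.26, SE 0.04, limma adjusted p = 0.000667). Tie1, an orphan partner of the angiopoietin receptor, stood at 361, 381, 340 and 368 in WT against 303, 326, 295 and 276 in Mettl3 KO, again without overlap (log2 fold change -0.27, SE 0.06, limma adjusted p = 0.00689). Flt1, a high-affinity VEGF receptor that also acts as a decoy, stood at 874, 895, 967 and 919 against 811, 856, 840 and 793. Its groups were apart but close together (log2 fold change -0.15, SE 0.04, limma adjusted p = 0.0454). Leaving out any library except WT 1 took the adjusted p to between 0.0551 and 0.145.

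The angiopoietin receptor Tek had the tightest WT values of the set, 554, 534, 529 and 535, and its Mettl3 KO values of 514, 511, 476 and 469 were all lower. The size of that difference, -0.13 on the log2 scale, did not pass the test (limma adjusted p = 0.130). Ptprb, the vascular endothelial phosphatase that opposes Tek and Kdr signalling, measured 1870, 1714, 1841 and 1903 in WT against 1750, 1773, 1566 and 1591 in Mettl3 KO (log2 fold change -0.13, limma adjusted p = 0.0679). Equal library totals, quantile normalisation, limma voom, and omission of WT 2 or of Mettl3 KO 1 each took its limma adjusted p to between 0.0220 and 0.0430. The TGF-beta coreceptor Eng was at 294 ± 25.8 in WT and 290 ± 31.9 in Mettl3 KO (SD, n = 4) and did not pass the test (limma adjusted p = 0.926).

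Promoter sequence was at hand for 17 of the 36 members, as RefSeq windows of build GRCm38.p6 matched by symbol. For the 3 receptors that fell and for the capillary water channel Aqp1 the 250 bases before the annotated start are shown 5′ to 3′ on the gene's strand, because these 4 genes fell without overlap of the groups. Capitals mark GGAA, the core bound by ETS factors, or TTCC, the same core on the other strand. The windows are chr5:75978456-75978705 on the minus strand for Kdr, chr5:147726012-147726261 on the minus strand for Flt1, chr4:118489850-118490099 on the minus strand for Tie1 and chr6:55336049-55336298 on the plus strand for Aqp1.
Kdr: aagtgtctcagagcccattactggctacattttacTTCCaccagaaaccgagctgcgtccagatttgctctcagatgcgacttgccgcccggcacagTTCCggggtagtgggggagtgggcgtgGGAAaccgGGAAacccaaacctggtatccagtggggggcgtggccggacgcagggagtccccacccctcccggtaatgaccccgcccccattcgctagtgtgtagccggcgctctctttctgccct
Flt1: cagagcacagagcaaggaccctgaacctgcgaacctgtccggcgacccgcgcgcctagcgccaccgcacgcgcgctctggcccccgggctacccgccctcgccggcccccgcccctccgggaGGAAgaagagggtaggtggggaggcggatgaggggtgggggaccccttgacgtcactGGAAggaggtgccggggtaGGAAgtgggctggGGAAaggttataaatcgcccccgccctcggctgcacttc
Tie1: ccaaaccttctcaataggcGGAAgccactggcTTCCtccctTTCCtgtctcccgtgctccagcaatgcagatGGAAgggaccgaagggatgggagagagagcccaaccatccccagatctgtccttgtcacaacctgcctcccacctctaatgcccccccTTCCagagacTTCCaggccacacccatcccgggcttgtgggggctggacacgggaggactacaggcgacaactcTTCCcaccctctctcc
Aqp1: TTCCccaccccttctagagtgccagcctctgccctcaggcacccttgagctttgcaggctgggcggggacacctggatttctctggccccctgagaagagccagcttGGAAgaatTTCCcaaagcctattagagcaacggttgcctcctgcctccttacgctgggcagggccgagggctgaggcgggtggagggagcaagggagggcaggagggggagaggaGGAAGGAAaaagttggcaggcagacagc

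The core occurred 4 times upstream of Kdr, 4 times upstream of Flt1, 7 times upstream of Tie1 and 5 times upstream of Aqp1, read on both strands. Of the 17 member windows, 15 held it (88.2%), beside 93.4% of 27025 windows of the same length over all genes, with medians of 4 and 3 matches. The longer form CAGGAA, which contains GGAA, was in 9 of the 17 windows (52.9%) and in 25.4% of all windows. CCGGAA, which also contains GGAA, was in 2 member windows (11.8%) and 12.2% of all. The SOX-type word ACAAT was in 5 member windows (29.4%) and 28.3% of all. These matches describe letters in a window and not bound sites.

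**Figure D2:**
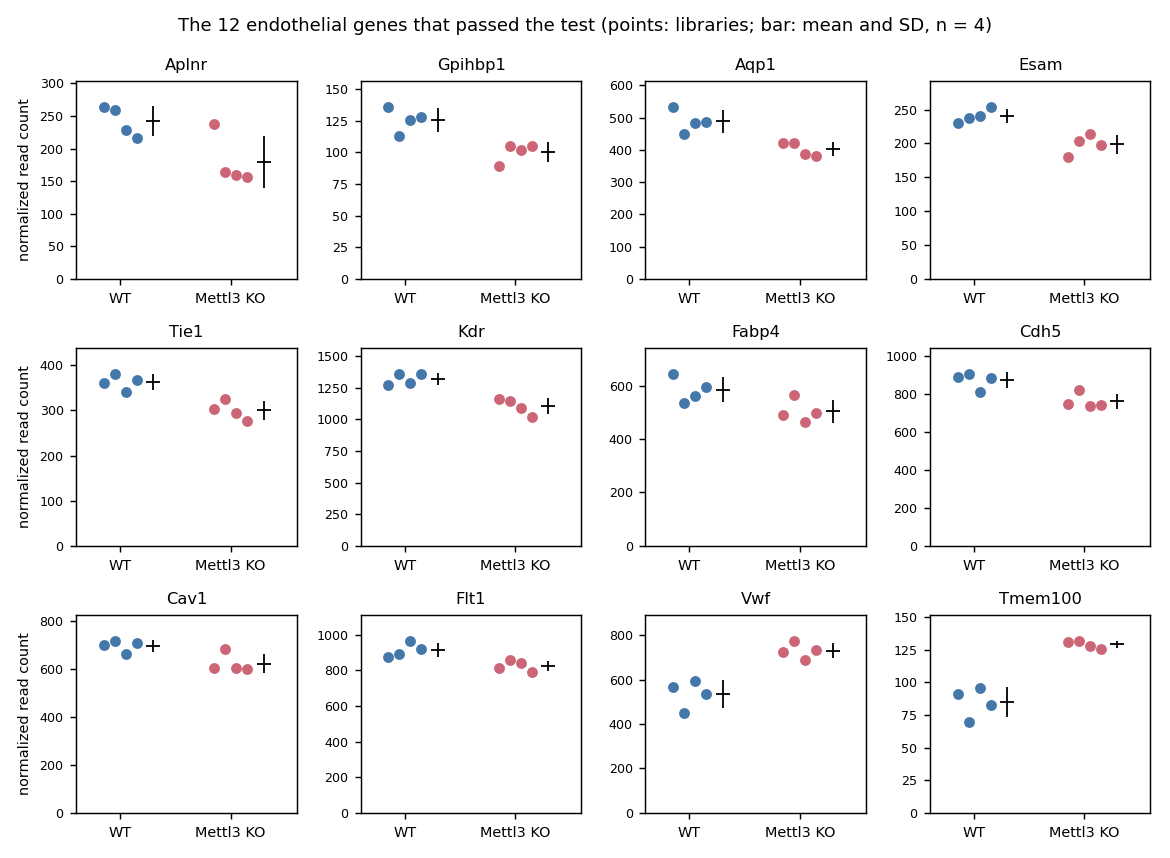
Normalized read counts (y axis, from 0) in each of the 4 WT and 4 Mettl3 KO hearts for the 12 endothelial genes of limma adjusted p under 0.05, with the mean and SD of each group beside the points. Of the 10 genes that were lower, Aplnr, Fabp4, Cdh5 and Cav1 are the 4 in which a Mettl3 KO heart lies above the lowest WT heart.

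Of the 12 junction and surface genes, 2 fell, none rose and all 12 had a fold change below 0 (median -0.13). Cdh5, the VE-cadherin of adherens junctions and the most abundant member per kb of exon, measured 885, 904, 808 and 883 in WT against 747, 818, 734 and 740 in Mettl3 KO. Mettl3 KO 2 stood well above the other Mettl3 KO hearts and above WT 3 (log2 fold change -0.20, SE 0.05, limma adjusted p = 0.0133). The call was lost without WT 2 or Mettl3 KO 3 (adjusted p = 0.0598 and 0.0626). Esam, an adhesion molecule of tight junctions, measured 230, 237, 240 and 254 in WT against 180, 203, 214 and 198, with no overlap (log2 fold change -0.27, SE 0.07, limma adjusted p = 0.0160, or 0.0610 without WT 4).

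Pecam1, the platelet endothelial adhesion molecule used most often to stain vessels, was nearly level, at 803, 818, 818 and 844 in WT against 798, 803, 755 and 779 in Mettl3 KO (log2 fold change -0.07, SE 0.04, limma adjusted p = 0.417). Emcn, a sialomucin of capillaries and veins, and Icam2, an adhesion molecule for leukocytes, had log2 fold changes of -0.03 and -0.02 (limma adjusted p = 0.878 and 0.972). The tight junction claudin Cldn5 was spread widely, at 57, 71, 62 and 70 in WT against 54, 79, 55 and 55 in Mettl3 KO (limma adjusted p = 0.733). Larger but uncalled differences were seen for Myct1 (log2 fold change -0.29, limma adjusted p = 0.0808) and the guidance receptor Robo4 (-0.24, limma adjusted p = 0.0809). The junction regulator Rasip1, the surface lectin Clec14a and its matrix ligand Mmrn2, and the surface protein Ecscr lay between -0.18 and -0.11 on the log2 scale, with limma adjusted p of 0.244, 0.378, 0.404 and 0.571.

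Capillary transport genes gave the lowest median among the roles, -0.27, and 3 of 4 fell. Aqp1 (ENSMUSG00000004655, mm39 chr6:55313417-55325540), the water channel of capillaries and red cells, measured 533, 448, 484 and 486 in WT against 420, 420, 388 and 380 in Mettl3 KO. The groups were apart (log2 fold change -0.28, SE 0.06, limma adjusted p = 0.00393). The call held with any 1 library left out. Erythroid markers, whose cells also carry Aqp1, summed to 175 to 292 in WT, with WT 1 the highest, and to 126 to 206 in Mettl3 KO, and none of the 6 passed the test. Their part in the Aqp1 difference was not tested.

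Gpihbp1, which anchors lipoprotein lipase to the capillary wall, measured 136, 113, 126 and 128 in WT against 89, 105, 102 and 105 in Mettl3 KO, all lower (log2 fold change -0.32, SE 0.09, limma adjusted p = 0.0328). Without any 1 library other than WT 2 its adjusted p was between 0.0527 and 0.114. Fabp4, a fatty acid carrier of capillaries and fat cells, measured 644, 535, 562 and 596 in WT against 488, 564, 464 and 496 in Mettl3 KO (log2 fold change -0.22, SE 0.06, limma adjusted p = 0.0363). Its groups overlapped through Mettl3 KO 2, and the call was lost without WT 1, WT 4, Mettl3 KO 1, Mettl3 KO 3 or Mettl3 KO 4, with adjusted p between 0.0653 and 0.156. The adipocyte markers that define fat cells were near 0, with Adipoq and Plin1 at no more than 4 in any library. Car4, a carbonic anhydrase of the capillary surface, measured 134, 119, 125 and 115 in WT against 129, 96, 97 and 90 in Mettl3 KO. Mettl3 KO 1 lay within the WT range, and Car4 did not pass the test (log2 fold change -0.27, SE 0.11, limma adjusted p = 0.134) except when Mettl3 KO 1 was left out (adjusted p = 0.0136).

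Of 4 genes of G protein-coupled receptor signalling, 1 fell. Aplnr (ENSMUSG00000044338, mm39 chr2:84966569-84970267), the receptor for apelin, measured 264, 259, 229 and 216 in WT against 238, 164, 159 and 156 in Mettl3 KO. Mettl3 KO 1 was within the WT range while the other Mettl3 KO hearts were far below it, and this was the lowest fitted value of the set (log2 fold change -0.45, SE 0.11, limma adjusted p = 0.00926). Leaving out Mettl3 KO 2, 3 or 4 gave adjusted p of 0.0552, 0.0619 and 0.0576. The adrenomedullin receptor Calcrl and its partner Ramp2 had log2 fold changes of 0.04 and -0.10 (limma adjusted p = 0.797 and 0.630), and the sphingosine phosphate receptor S1pr1 had -0.04 (limma adjusted p = 0.843).

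None of the 4 transcription factors passed the test, and all 4 fold changes were below 0 (median -0.17). An unadjusted limma p under 0.05 was found for 2 of them, beside 4184 of the 20313 genes tested. Sox18, a SOXF factor of vessel and lymphatic development, measured 55, 55, 75 and 60 in WT against 51, 44, 51 and 44 in Mettl3 KO. The groups were apart, yet Sox18, at these low counts, did not pass the test (log2 fold change -0.35, SE 0.13, limma adjusted p = 0.123). Its relatives Sox7 and Sox17, the latter rich in arteries, had -0.17 and -0.18 (limma adjusted p = 0.241 and 0.502). Erg, the ETS factor that maintains endothelial identity, had -0.08 (limma adjusted p = 0.620).

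The vessel wall group held both genes that rose. Tmem100 (ENSMUSG00000069763, mm39 chr11:89921174-89927334), a membrane protein induced by BMP9 and BMP10 signalling through the endothelial receptor ALK1, measured 91, 70, 96 and 83 in WT against 131, 132, 128 and 126 in Mettl3 KO. The groups were far apart and the Mettl3 KO hearts were the most uniform of any member, with means of 85.0 ± 11.3 and 129 ± 2.75 (SD, n = 4; log2 fold change 0.61, SE 0.10, limma adjusted p = 0.000384). Vwf (ENSMUSG00000001930, mm39 chr6:125523737-125663642), the clotting glycoprotein stored by endothelium of veins, large vessels and endocardium, measured 565, 450, 593 and 533 in WT against 722, 775, 690 and 734 in Mettl3 KO. All Mettl3 KO hearts were above all WT hearts, at 136.4% of the WT mean (log2 fold change 0.45, SE 0.07, limma adjusted p = 9.18e-05). Both calls held with any 1 library left out.

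All 4 atrial genes (Myl7, Sln, Bmp10 and Nppa) moved in the same direction as Vwf and Tmem100, with a summed level of 276.4% of WT. In Mettl3 KO 1, which had the lowest atrial sum of its group, Bmp10, Myl7 and Sln were at 0, 23 and 10, not above WT. Nppa was at 452 in that heart, above its WT values of 175 to 292. Platelet markers, from cells that also contain Vwf, summed to 34 to 48 in WT and 27 to 38 in Mettl3 KO. The part of atrial or endocardial tissue in the rise of Vwf and Tmem100 was not tested. Plvap, the diaphragm protein of fenestrated and venous endothelium, measured 50, 43, 57 and 51 in WT against 61, 50, 66 and 73 in Mettl3 KO, an overlapping difference of 0.30 on the log2 scale (limma adjusted p = 0.211).

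The other members of the vessel wall group lay below 0. Cav1, the coat protein of caveolae, measured 697, 716, 660 and 708 in WT against 602, 681, 603 and 598 in Mettl3 KO (log2 fold change -0.16, SE 0.05, limma adjusted p = 0.0490). Mettl3 KO 2 overlapped the WT range, and the adjusted p was between 0.0898 and 0.148 without WT 1, WT 2, WT 4, Mettl3 KO 1, Mettl3 KO 3 or Mettl3 KO 4. Egfl7, a matrix protein secreted by endothelium, measured 229, 260, 276 and 260 against 202, 230, 233 and 222 (log2 fold change -0.21, limma adjusted p = 0.0825). Nos3, the endothelial nitric oxide synthase, measured 193, 195, 180 and 216 against 169, 188, 167 and 194 (-0.13, limma adjusted p = 0.395).

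Capillary genes were then compared with pan-endothelial genes. The members and lists were chosen with earlier results of these data known, so this comparison is a description. The capillary class (Gpihbp1, Fabp4, Car4, Aqp1 and Aplnr) had 4 of 5 genes lower, beside 3.19% of all genes, and a median log2 fold change of -0.28. The 4 became 1 without Mettl3 KO 3 or Mettl3 KO 4 and 2 without WT 1, WT 4 or Mettl3 KO 2. The pan-endothelial class of 28 genes had 6 lower and 1 higher (Tmem100) and a median of -0.13. The 3 genes of veins, arteries or endocardium had 1 higher (Vwf) and a median of 0.30. That median is the value of Plvap, which did not pass the test, and Sox17 was at -0.18. When Cav1, Kdr and Tmem100, which are also rich in capillaries, were counted with the capillary class, 6 of 8 capillary genes were lower and 1 was higher, with a median of -0.26. The contrast rests on few chosen genes. Emcn, of capillaries and veins, counted as pan-endothelial (log2 fold change -0.03). The fatty acid carrier Cd36 was in neither class (-0.01, limma adjusted p = 0.940). Summed counts of the capillary class were 1474 to 1711 in WT and 1210 to 1364 in Mettl3 KO (82.4% of WT), and those of the pan-endothelial class 11127 to 11543 and 9876 to 10783 (90.8% of WT).

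Within each library, the mean log2 level of the capillary class relative to WT was 0.13, -0.07, -0.02 and -0.04 in WT against -0.18, -0.28, -0.38 and -0.38 in Mettl3 KO. For the pan-endothelial class it was between -0.02 and 0.03 in WT, and the Mettl3 KO values were -0.14, -0.04, -0.15 and -0.15. Both classes were lower in every Mettl3 KO heart than in any WT heart. Within a heart, the capillary level minus the pan-endothelial one was -0.07 to 0.15 in WT, and Mettl3 KO 1 at -0.04 lay inside that range while Mettl3 KO 2 to 4 lay below it, at -0.25, -0.23 and -0.23. The capillary minus pan-endothelial difference of the median log2 fold changes was -0.15, or -0.09 without WT 1, the heart with the highest capillary level, and this difference was not tested.

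**Figure D3:**
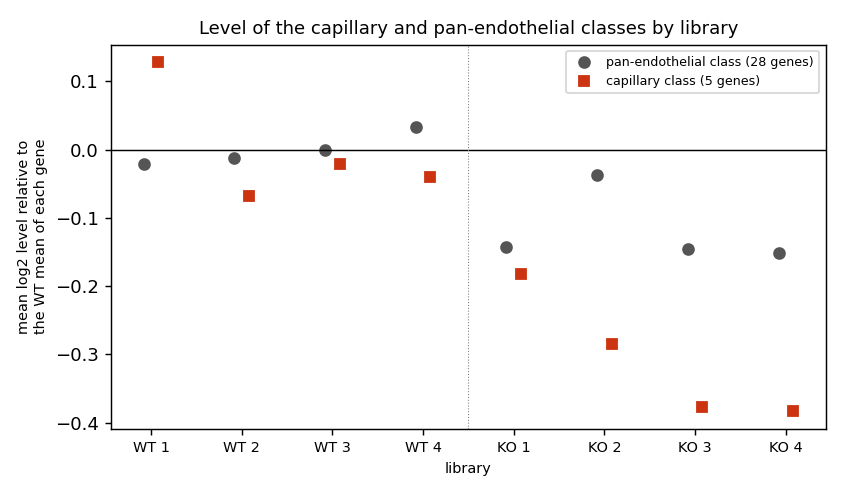
Mean log2 level of the 28 pan-endothelial and the 5 capillary genes relative to each gene's WT mean (y axis) in each library (x axis). Capillary points fall to -0.18 to -0.38 in Mettl3 KO, while pan-endothelial points fall to -0.04 to -0.15.

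Each library was also scaled to the level of the 28 pan-endothelial genes, which sets the centre of those genes near 0 by construction and so bears on the other members alone. On that scale the capillary median was -0.16, and none of the 4 capillary genes called lower passed the test. Aplnr stood at -0.33 on the log2 scale (limma adjusted p = 0.0521), Gpihbp1 at -0.21 (limma adjusted p = 0.186), Aqp1 at -0.16 (limma adjusted p = 0.117) and Fabp4 at -0.097 (limma adjusted p = 0.380). Vwf was higher on that scale too, by 0.57 (limma adjusted p = 3.46e-06). This scaling moved the median of all genes to 0.11.

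Levels were compared between members only per kb of exon, to lessen the effect of length. The length joined the exons of all annotated transcripts of a gene, 4.489 kb for Fabp4 and 3.301 kb for Ramp2. It can exceed that of the transcript expressed, which lowers the level per kb, so the order is approximate. In WT hearts Cdh5 (207 normalized counts per kb), Cav1 (201.9) and Aqp1 (185.7) led, followed by Kdr (146), Ptprb (137.4), Pecam1 (131.8) and Fabp4 (130.2). The leading 3 overlapped in their WT values. Sox17 was lowest, at 15.4 per kb, below Plvap at 25.3 and Ramp2 at 31.7. The level of Tmem100 went from 48.1 per kb in WT to 73.2 in Mettl3 KO and that of Vwf from 33.3 to 45.5, so that both stayed below the level of Kdr.

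**Figure D4:**
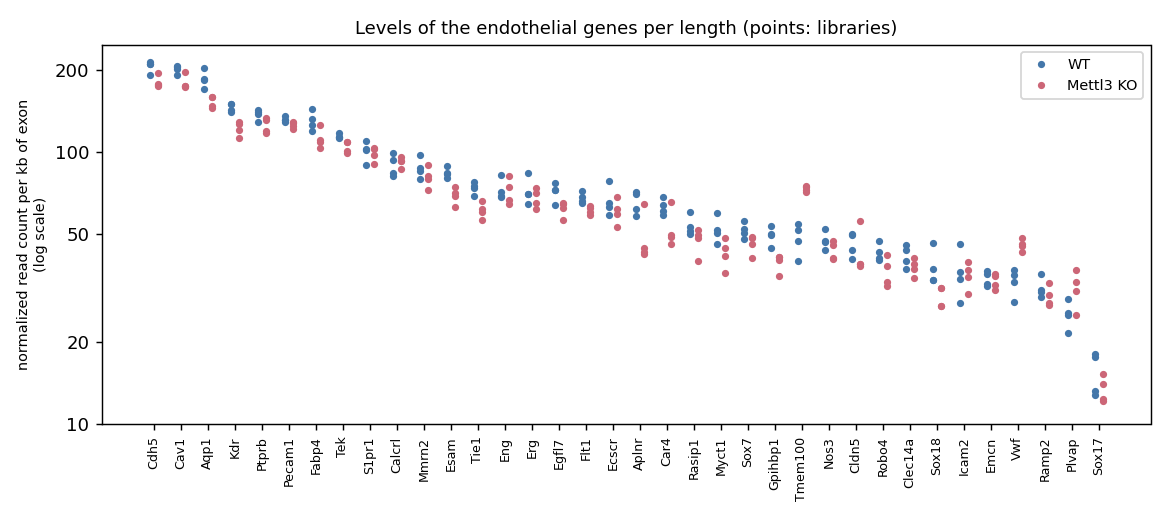
Normalized read counts per kb of exon (y axis, log scale) of the 36 genes in each of the 8 hearts, ordered by the WT mean. Levels run from 207 for Cdh5 to 15.4 for Sox17 in WT, and Tmem100 and Vwf are the genes whose Mettl3 KO points stand clear above their WT points.

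Other endothelial genes and the signals that reach endothelium were read from lists of the pathway. Beside the counts of every such list, 3.19% of all genes tested passed as lower and 4.72% as higher. Among genes of a mean of at least 10, 1687 of 13795 passed in either direction. Of 22 further endothelial genes 7 fell and none rose (median -0.18). These were Cd93 (log2 fold change -0.22), Cyyr1 (-0.25), the adhesion receptor Adgrl4 (-0.25), Arhgef15 (-0.29), Ushbp1 (-0.28), Exoc3l (-0.63) and Nostrin (-0.51), a trafficking partner of the nitric oxide synthase. Nostrin measured 110, 121, 142 and 124 in WT against 88, 87, 85 and 86 in Mettl3 KO, without overlap (limma adjusted p = 0.00118). The genes with the highest counts of the list, not corrected for length, were Adgrf5 and the coreceptor Nrp1, which did not pass the test (-0.13 and 0.04, limma adjusted p = 0.109 and 0.766).

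Of 14 ligands, 3 fell and 2 rose. Vegfa, the ligand of Kdr and Flt1, measured 924, 1006, 1048 and 946 in WT against 876, 798, 809 and 781 in Mettl3 KO (log2 fold change -0.26, limma adjusted p = 0.00109). Angpt1, the activating ligand of Tek, measured 412, 374, 321 and 335 against 202, 268, 247 and 277 (-0.54, limma adjusted p = 0.000352). Apln, the ligand of Aplnr, measured 209, 221, 185 and 211 against 171, 170, 153 and 151 (-0.35, limma adjusted p = 0.00490). All 3 ligands were lower in every Mettl3 KO heart than in any WT heart, as were 5.04% of all genes tested. The growth factor Fgf1 and the guidance ligand Slit3 rose by 0.37 and 0.64 on the log2 scale (limma adjusted p = 2.17e-05 and 0.00128), while Vegfb did not pass the test (0.03, limma adjusted p = 0.815).

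Genes of particular vessel types gave mixed results. None of 12 Notch and arterial genes passed the test (limma adjusted p from 0.190 to 0.993), among them Notch1 (-0.10) and the arterial ligand Efnb2 (-0.04). An unadjusted limma p under 0.05 was found for 2 of the 12, beside 4184 of the 20313 genes tested. Of the vein and endocardium list, 6 of 7 genes were tested and 2 rose. The natriuretic peptide clearance receptor Npr3, strong in endocardium, measured 212, 215, 226 and 242 in WT against 344, 366, 366 and 396 in Mettl3 KO (0.72, limma adjusted p = 2.72e-07). The leukocyte adhesion molecule Vcam1 rose by 0.47 (limma adjusted p = 0.00447), whereas Ephb4 and Nr2f2 did not pass the test (limma adjusted p = 0.120 and 0.919). Of the atrial genes, Nppa was above WT in every Mettl3 KO heart, while Bmp10, Myl7 and Sln were not above WT in Mettl3 KO 1. Npr3 was at 344 in that heart. The part of the atrial genes in the rise of Npr3 was not tested.

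Of 7 lymphatic genes Pdpn and Mmrn1 rose, by 0.56 and 0.51 (limma adjusted p = 0.0377 and 0.00663). The defining factor Prox1 (0.04, limma adjusted p = 0.649), which cardiomyocytes also express, and the receptor Flt4 (-0.01, limma adjusted p = 0.977) did not pass the test, and Pdpn is also made by fibroblasts, whose markers were higher. Of 13 further transcription factors 4 fell, namely Ets1 (-0.26), Ets2 (-0.36), Meox2 (-0.45) and Tcf15 (-0.48). Meox2 and Tcf15 act as a pair in heart capillary endothelium and drive fatty acid uptake genes. Meox2 measured 174, 156, 151 and 143 in WT against 120, 115, 100 and 121 in Mettl3 KO (limma adjusted p = 0.00222), and Tcf15 80, 78, 103 and 78 against 59, 68, 55 and 59 (limma adjusted p = 0.0140). Both were apart between the groups, while Epas1, the factor with the highest counts, did not pass the test (-0.08, limma adjusted p = 0.240). In the lipid uptake list 1 of 7 fell, the lipoprotein lipase Lpl that Gpihbp1 anchors (-0.17, limma adjusted p = 0.0160), and the fatty acid carrier Cd36 did not pass the test (-0.01, limma adjusted p = 0.940). Among these context genes the call was lost with 1 library left out for Pdpn (all omissions but WT 1 and Mettl3 KO 3), Exoc3l (all but WT 1 and Mettl3 KO 1), Lpl (WT 1, WT 4, Mettl3 KO 2 or 4), Tcf15 (WT 3 or Mettl3 KO 3) and Ushbp1 (WT 2 or WT 4), with limma adjusted p between 0.0524 and 0.104.

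**Figure D5:**
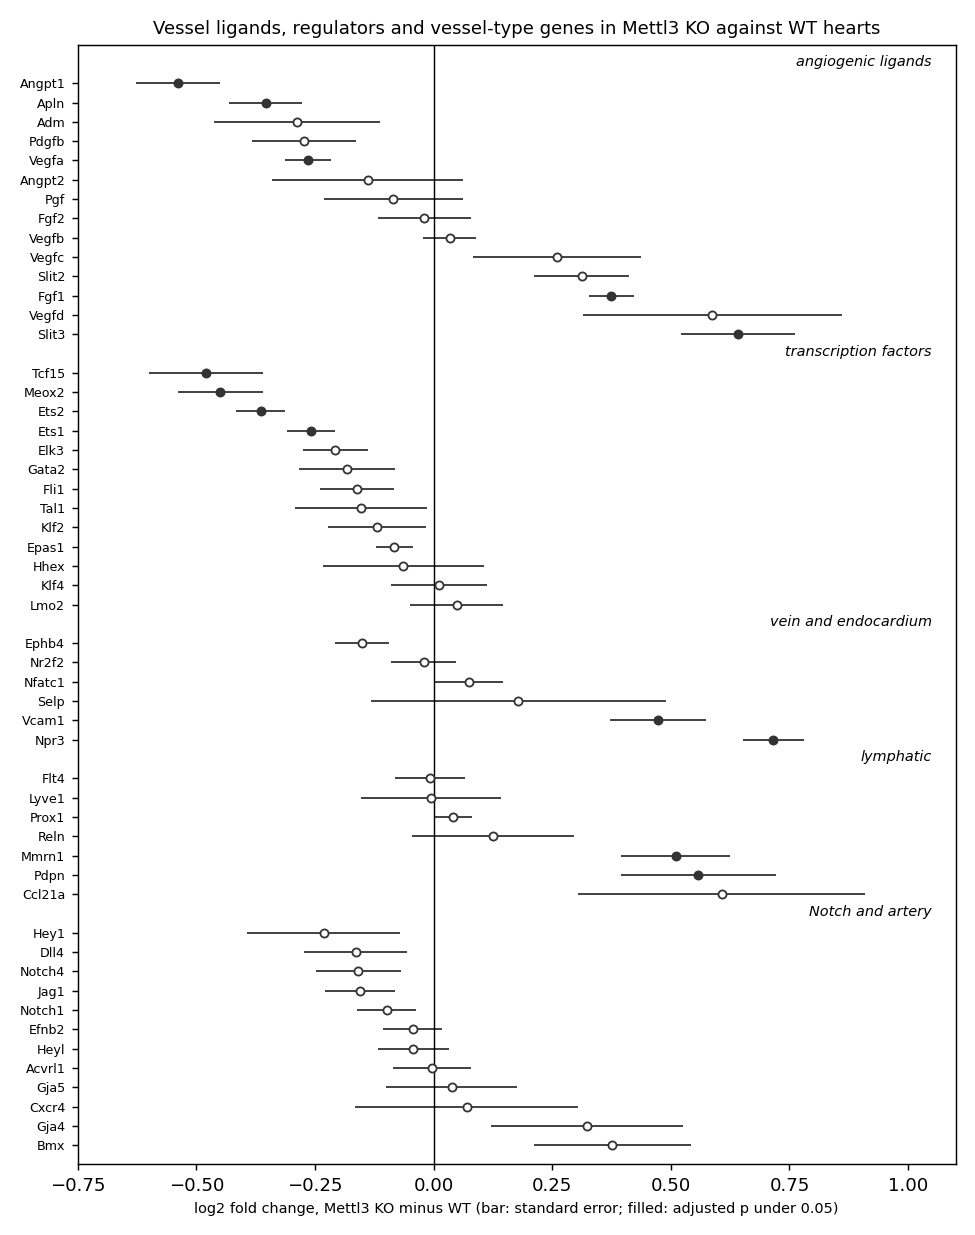
Log2 fold changes (x axis, Mettl3 KO minus WT, bars: standard error, n = 4 hearts each) of vessel ligands, transcription factors and genes of veins, endocardium, lymphatics and arteries, with filled points for limma adjusted p under 0.05. Angpt1, Apln and Vegfa lie left of 0, Npr3 and Vcam1 right of 0, and no Notch or arterial gene is filled.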

How the data were processed

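Total RNA of 8 hearts was sequenced by the study with a stranded kit. As the authors state, reads were trimmed with Trimmomatic (0.39), aligned to mm39 with STAR (2.7.11a), cleared of duplicates (Picard 3.1.1) and of multi-mapping, ribosomal and mitochondrial reads, counted over exons by strand with featureCounts (2.0.4) and normalized with DESeq2 (1.36.0). The deposited values are such normalized counts rounded to whole numbers, treated here as a score and not as raw counts, so that no count model was used and the raw depth is unknown. Removing duplicates without molecular identifiers can lower the values of abundant genes, and removing multi-mapping reads those of genes with close copies. The totals of 2839589 to 2916986 reflect that scaling.

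Genes with a mean of at least 1 were tested (20313, leaving out 2732) on log2(value + 1) with limma 3.58.1 (R 4.3.3), with a mean-variance trend, two-sided, with Benjamini-Hochberg adjustment over all genes. The pseudocount understates the fold change of low genes. The fit was checked on simulated data with planted fold changes larger than that of any member. Changes of the size seen in the members were not covered by that check. The alternatives, 18 in all, were other scalings, filters, pseudocounts, variance models, a replicate block and the omission of each library. All 36 members are named, and of the lists of other vessel genes each gene passing the test and the genes of highest mean count, not corrected for length. Markers of other cell types are given as counts and sums. Members and lists were chosen with earlier results of these data known. Ackr1 and Cidec were below the filter, and Gp9 and Ucp1 were not analysed here. Exon lengths (36 of 36 members, by gene ID) and RefSeq promoters (17 of 36, by symbol) came from GRCm38 and were not combined with mm39 positions.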

Additional observations from a re-analysis of the deposited data

Results flagged for a closer look

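In 4 of 72 groups of 4 libraries examined, a single library lay far from the other 3 by Dixon's ratio of its gap to the group's range, where chance alone gives 3.6. Mettl3 KO 2 was the high library for Cdh5 (818 beside 734 to 747, ratio 0.845), Cldn5 (79 beside 54 to 55, ratio 0.96) and Cav1 (681 beside 598 to 603, ratio 0.94). Mettl3 KO 1 was the high library for Aplnr (238 beside 156 to 164, ratio 0.902). Mettl3 KO 2 held the group's lowest value for 1 member and Mettl3 KO 4 for 15 of the 36.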

How the results depend on the processing

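Tmem100 passed in all 18 alternatives, Vwf in 17 (limma adjusted p = 0.0758 without the mean-variance trend), Kdr, Tie1 and Aqp1 in 16, Esam in 15, Cdh5 in 14, Aplnr in 13, Fabp4 in 10, and Flt1, Cav1 and Gpihbp1 in 8. Of the members not called in the main fit, Ptprb passed in 5 alternatives and Egfl7, Robo4, Car4 and Myct1 in 1 each. Scaling to the pan-endothelial members gave 2523 genes, 2 members, and medians of -0.022 (members), -0.16 (capillary) and -0.012 (pan-endothelial). As this adds nearly the same amount to every fold change, those just below 0 change sign by construction, namely Pecam1 (0.052), Cldn5 (0.0098), Emcn (0.087), Eng (0.097), Erg (0.034), Mmrn2 (0.0066), Icam2 (0.10), Ramp2 (0.016) and S1pr1 (0.084). Without a mean-variance trend 321 genes and 1 member passed. With 1 library left out, 1019 (without Mettl3 KO 3) to 1596 genes (of 1607) and 6 (without Mettl3 KO 3) to 11 members (of 12) passed, with 7 members without WT 4 or Mettl3 KO 4. With 1 library left out, the fold changes that turned sign ranged from -0.061 to 0.0041 for Emcn, from -0.086 to 0.037 for Eng, from -0.13 to 0.10 for Icam2, from -0.0015 to 0.092 for Calcrl and from -0.089 to 0.0055 for S1pr1. The cause of these changes was not tested. The replicate block gave 8 members and 1346 genes. The labels do not state whether equal numbers pair the hearts. Deviations of same-numbered hearts correlated at 0.05, 0.04, -0.04 and 0.09 over 12027 genes, which cannot show whether they shared a litter or batch. Of 1026 single-gene values 892 kept their direction and side of the threshold. The widest standard errors among the members were those of Plvap, Icam2, Cldn5, Sox18 and Sox17, all under 100 normalized counts in every library.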
